A study of Homo sapiens with 6 samples.

Results

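The TAK1 complex and the ubiquitin regulators that act on it were followed here as 10 genes, taken by symbol from a table of 58735 rows: MAP3K7, which encodes TAK1, its binding partners TAB1, TAB2 and TAB3, the ubiquitin ligases TRAF2, TRAF6 and XIAP, the scaffold kinase RIPK1, and CYLD and TNFAIP3, which limit ubiquitin signaling. Each symbol matched 1 row, and all 10 rows passed the filter on low counts that left 15935 genes for testing. RNA came from RD cells, an established embryonal rhabdomyosarcoma (ERMS) line, transduced with lentivirus for either scrambled shRNA (control, n = 3) or TAK1 shRNA (knockdown, n = 3). Apart from the shRNA, both groups had the same cell line and the same kind of vector, and as the study describes it, cells with only 1 of its TAK1 shRNA sequences, number 1, were sequenced, so that the knockdown and other effects of that construct cannot be told apart. The labels do not say whether replicates were separate transductions, and the p-values measure the spread between these samples, which may be technical.

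TAK1 is a MAP3 kinase that works in a complex. TAB1 binds the kinase and promotes its activity, while TAB2 or TAB3 tether it to lysine 63-linked ubiquitin chains, which ligases such as TRAF2 and TRAF6 build after TNF, interleukin-1 or Toll-like receptors are engaged. RIPK1 carries such chains at the TNF receptor, and XIAP is a further ubiquitin ligase. CYLD and A20, the product of TNFAIP3, remove or edit ubiquitin chains. Active TAK1 then phosphorylates MAP2 kinases and the IκB kinase complex.

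Total counts ran from 28839898 to 34469323 per sample. Levels are given in CPM, read counts scaled to the library size after the TMM adjustment described below. RD cells showed muscle lineage RNA in every sample, with MYOD1 at 255 to 271 CPM in control and 322 to 355 CPM in knockdown samples. MYOG, DES and CDH15 were also higher in every knockdown sample than in any control sample, and PAX7 overlapped. CHRNA1 was lower, at 908 to 929 CPM in control and 698 to 702 CPM in knockdown samples. Such separation is common here, since 21.6% of all tested genes were higher and 22.2% lower without overlap. MYF5 was at 0, and the leukocyte, epithelial and endothelial markers examined stayed at or below 0.425 CPM. The share of counts on mitochondrially encoded genes was 0.991 to 1.13% in control and 1.22 to 1.33% in knockdown samples, and its part in the results below was not tested.

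The site cut by the shRNA is shown first because every comparison rests on it. It lies on the minus strand of GRCh38 at chr6:90560183-90560203, inside coding exon 5 (17 exons in all) of MAP3K7 transcript ENST00000369329.8. Of the 24 MAP3K7 transcripts in GENCODE 44, 18 hold the site, and 0 transcripts of other genes hold an exact match. In the stretch below, read 5′ to 3′ along the mRNA, capitals mark the 21 targeted bases and lower case the 20 bases on each side.

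MAP3K7 target: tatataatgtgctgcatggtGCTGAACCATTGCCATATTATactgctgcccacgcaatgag

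MAP3K7 RNA (ENSG00000135341.19, chromosome 6, 90513573 to 90587086) was measured at 77.9, 76.5 and 77.6 CPM in the control samples and at 30.5, 33.6 and 29.9 CPM in the knockdown samples, with library sizes scaled by the TMM method (trimmed mean of M-values). All knockdown samples lay far below all control samples, and the remaining RNA was 40.5% of the control mean. On the log2 scale MAP3K7 fell by 1.30 (standard error 0.062, 95% interval from -1.43 to -1.17, adjusted p = 4.45e-14, edgeR quasi-likelihood test with Benjamini-Hochberg adjustment over all tested genes). The change of MAP3K7 ranked 184 of 15935 by size, so that 1.15% of tested genes changed by more. Of the 10 genes, MAP3K7 was the only one past both thresholds (adjusted p under 0.05, and a log2 fold change of 0.25 or more in either direction). That is 1 of 10 genes lower and 0 higher, beside 11.3% of all tested genes lower and 11.8% higher, or 23.1% in either direction. The 1 lower gene is the target of the shRNA, and among the 9 others 0 were higher and 0 lower. With scaling by library size alone, the calls over all genes were 2376 higher and 1404 lower, against 1879 and 1805 with TMM, and MAP3K7 remained the only member called.

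**Figure D1:**
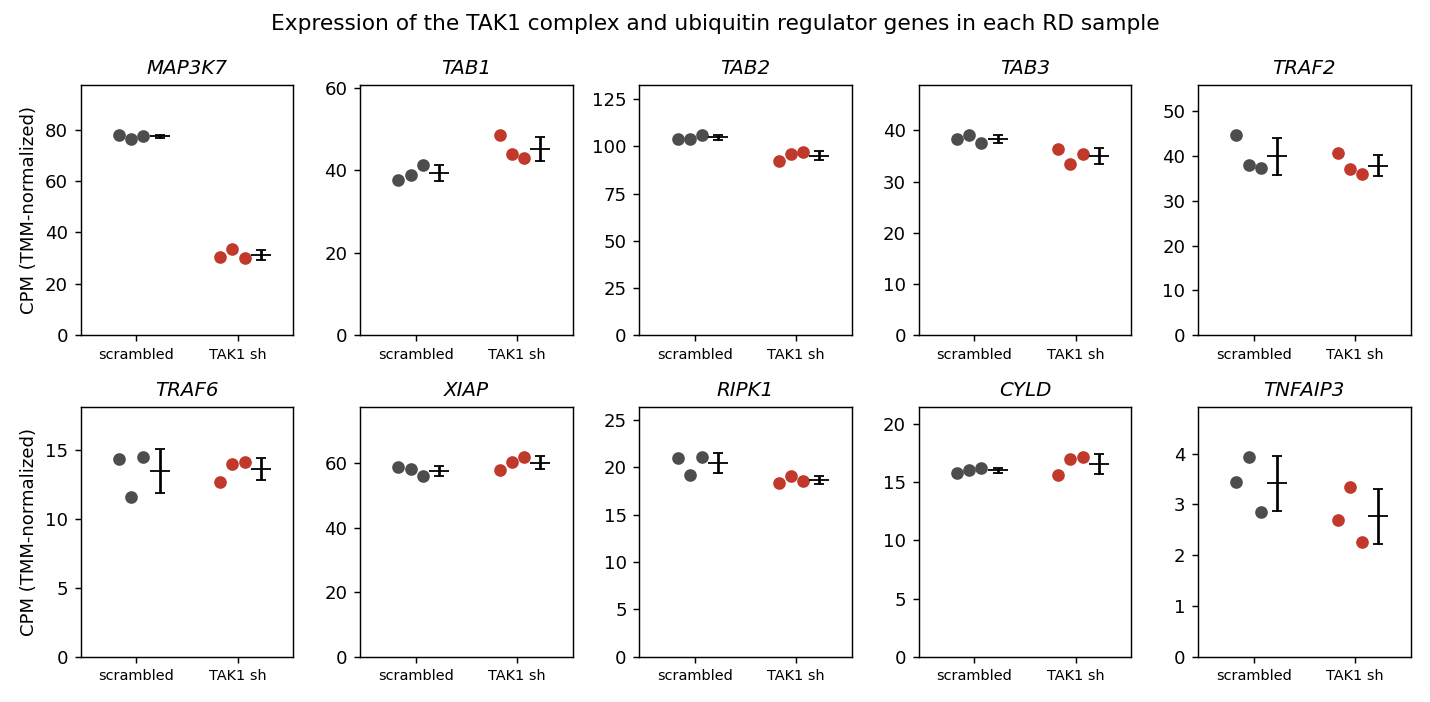
TMM-normalized CPM (vertical axes, each from 0) of the 10 genes in the 3 scrambled shRNA samples (grey points) and the 3 TAK1 shRNA samples (red points), with the mean and SD (n = 3) beside them. MAP3K7 dropped from 77.3 to 31.3 CPM, and the other panels show much smaller distances between groups.

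The 9 other genes moved little, apart from TNFAIP3, whose log2 fold change of -0.30 was imprecise. The 9 had a median absolute log2 fold change of 0.13, against 0.19 over all tested genes, which were not matched in read count. The median log2 fold change of the 9 was -0.079, against 0.018. By adjusted p alone, TAB1 was higher and TAB2 lower, in addition to the shRNA target MAP3K7. That makes 3 of the 10 members, target included, beside 33.3% of all tested genes (16.1% higher and 17.2% lower). The samples of the 2 groups did not overlap for 5 members, MAP3K7, TAB1, TAB2, TAB3 and RIPK1, with 1 of these higher and 4 lower in knockdown samples. Among all tested genes, 43.9% did not overlap (21.6% higher and 22.2% lower), so the members' share, target included, is near the background. The 95% interval of the log2 fold change lay within 0.25 of 0 for 5 of the 9 genes and within 0.5 of 0 for 8, TNFAIP3 being the exception.

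**Figure D2:**
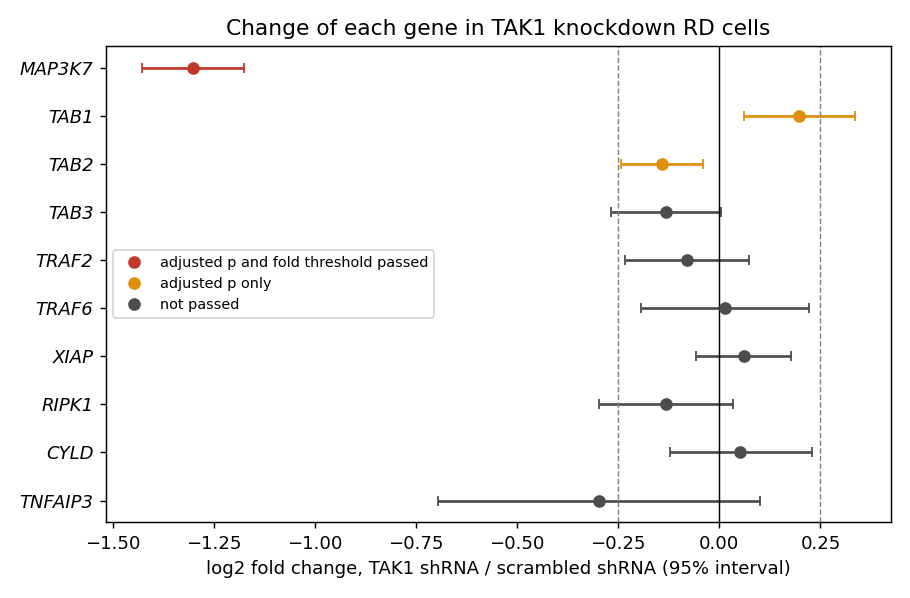
Log2 fold change of TAK1 shRNA over scrambled shRNA samples (horizontal axis) with its 95% interval from the edgeR fit (n = 3 per group), with dashed lines at the fold threshold of 0.25. MAP3K7 (red) lies at -1.30, TAB1 and TAB2 (orange) pass the adjusted p alone, at 0.20 and -0.14, and the widest interval belongs to TNFAIP3, from -0.70 to 0.10.

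Among the binding partners, TAB1 and TAB2 differed between groups in opposite directions, each by less than the fold threshold. TAB1 (chromosome 22, 39399778 to 39437060) encodes the partner that promotes kinase activity, and it stood at 37.7, 38.8 and 41.3 CPM in control and 48.5, 43.9 and 42.9 CPM in knockdown samples. Every knockdown sample was above every control sample, with knockdown replicate 1 the highest. The TAB1 means were 39.3 ± 1.84 and 45.1 ± 3.01 CPM (SD, n = 3), which differed by 0.20 in log2 units (standard error 0.067, adjusted p = 0.0238, edgeR). The adjusted p of TAB1 ran from 0.00646 to 0.107 over 14 alternatives, and it was over 0.05 without knockdown replicate 1 (log2 fold change 0.14), control replicate 1 (0.17) or control replicate 2 (0.19).

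TAB2 (chromosome 6, 149218641 to 149411613) encodes a ubiquitin-binding adaptor and held the most reads of the 10 genes. It was at 104, 104 and 106 CPM in control samples and at 92.4, 95.9 and 96.8 CPM in knockdown samples. The groups were separate, with coefficients of variation of 0.915% and 2.48%. Counting error at the mean count of TAB2 is 1.79%, so the control spread was smaller than counting alone would give. TAB2 had a log2 fold change of -0.14 (standard error 0.049, adjusted p = 0.0287, edgeR), which left 90.7% of the control level. Its adjusted p was over 0.05 in 6 of 14 alternatives and ran from 0.0101 to 0.145, the highest with scaling by library size alone, where the log2 fold change was -0.092. The other 5 were upper-quartile normalization (-0.12) and the fits without knockdown replicate 1 (-0.12) or without control replicate 1, 2 or 3 (-0.14, -0.15 and -0.13). Exons of TAB2 share 136 bases with a long noncoding RNA on the same strand.

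TAB3 (chromosome X, 30827442 to 30975084) encodes the paralog of TAB2 and measured 38.3, 39.1 and 37.6 CPM in control and 36.4, 33.4 and 35.3 CPM in knockdown samples. All knockdown samples again lay below all controls, at 91.3% of the control mean, but the log2 fold change of -0.13 (standard error 0.065) did not pass (adjusted p = 0.128, edgeR). Its 95% interval ran from -0.27 to 0.003, which still includes a decrease at the fold threshold. Antisense transcripts overlap 245 and 292 bases of TAB3 exons, and both antisense rows held 0 reads in all samples.

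None of the ubiquitin ligases passed the test. TRAF2 (chromosome 9, 136881912 to 136926607), a ligase adaptor of TNF receptors, was at 44.7, 37.9 and 37.3 CPM in control and 40.6, 37.1 and 35.9 CPM in knockdown samples. Control replicate 1 stood above the others and the groups overlapped, for a log2 fold change of -0.079 with a 95% interval from -0.23 to 0.073 (adjusted p = 0.453, edgeR). Without control replicate 1 the log2 fold change of TRAF2 was 0.007. TRAF6 (chromosome 11, 36483769 to 36510272), the ligase downstream of interleukin-1 and Toll-like receptors, was at 14.3, 11.6 and 14.5 CPM in control and 12.7, 14.0 and 14.1 CPM in knockdown samples. Its groups overlapped fully, with a log2 fold change of 0.014, a 95% interval from -0.19 to 0.22 and an adjusted p of 0.934 (edgeR), and its sign depended on single samples. XIAP (chromosome X, 123859712 to 123913972), a ligase that also inhibits caspases, was at 58.6, 58.2 and 55.8 CPM in control and 57.9, 60.3 and 61.9 CPM in knockdown samples. The XIAP groups overlapped, with a log2 fold change of 0.061 and an interval from -0.057 to 0.18 (adjusted p = 0.454, edgeR). The interval of each of these 3 ligase genes lies inside the fold threshold of 0.25 in both directions. Rows of the XIAP pseudogenes held 6 reads in all over the 6 samples, of which XIAPP3 had 5 and XIAPP2 had 1, so few reads were assigned to these copies.

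RIPK1 (chromosome 6, 3063824 to 3115187) encodes the kinase scaffold of the TNF receptor complex. It was measured at 21.0, 19.2 and 21.1 CPM in control and 18.3, 19.1 and 18.5 CPM in knockdown samples. The groups came close without overlapping, and the knockdown mean was 91.2% of the control mean. The RIPK1 log2 fold change of -0.13 (standard error 0.080) did not pass (adjusted p = 0.221, edgeR). Annotated noncoding genes on the other strand share 330 and 124 bases with its exons. Its interval from -0.30 to 0.033 reached past the fold threshold on the lower side. TAB2, TAB3 and RIPK1 thus had point estimates of nearly the same size, and only the first passed the adjusted p.

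The genes that remove or edit ubiquitin chains differed in level and in precision. CYLD (chromosome 16, 50742050 to 50801935), a deubiquitinase of lysine 63-linked and linear chains, was at 15.8, 16.1 and 16.2 CPM in control and 15.6, 17.0 and 17.2 CPM in knockdown samples. The knockdown samples spanned the control samples, with a log2 fold change of 0.052, an interval from -0.12 to 0.23 and an adjusted p of 0.690 (edgeR). TNFAIP3 (chromosome 6, 137867214 to 137883314) encodes the ubiquitin-editing enzyme A20, a textbook NF-κB target. It held only 98, 124 and 88 reads in control samples and 79, 118 and 75 reads in knockdown samples, or 3.45, 3.94 and 2.85 CPM against 2.70, 3.34 and 2.27 CPM. The TNFAIP3 groups overlapped. Its log2 fold change of -0.30 exceeded the fold threshold in size, but its standard error was 0.19 and it did not pass (adjusted p = 0.259, edgeR). Over 14 alternatives the TNFAIP3 estimate stayed negative, from -0.46 to -0.18, with an adjusted p from 0.101 to 0.615. At a mean count of 97.0, counting error alone is 10.2% of the value, compared with 1.79% for TAB2. Annotated noncoding genes on the other strand share 54 and 27 bases with exons of CYLD and 95 bases with those of TNFAIP3.

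The promoter of TNFAIP3 is shown because it is the member known as an NF-κB target. The 300 bases below (RefSeq, GRCh38.p14, plus strand, chr6:137867009-137867308) run from 250 bases before to 50 bases after the annotated start, and capitals mark 2 matches to the NF-κB motif, sought on both strands, which start 67 and 55 bases before the start.

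TNFAIP3 promoter: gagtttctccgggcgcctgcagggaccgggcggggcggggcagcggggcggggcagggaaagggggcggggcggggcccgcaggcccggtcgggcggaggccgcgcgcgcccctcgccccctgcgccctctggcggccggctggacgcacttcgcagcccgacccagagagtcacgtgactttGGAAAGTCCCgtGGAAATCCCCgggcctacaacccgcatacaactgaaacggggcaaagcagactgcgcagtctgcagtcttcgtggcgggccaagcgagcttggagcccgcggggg

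All 10 members matched the RefSeq promoter table, with 17 promoters between them. The NF-κB motif was found in 4 of these 17 windows (23.5%), those of TNFAIP3, CYLD (2 windows) and TAB2. Of all 35116 promoter windows of the same length, 5.91% held it. Counted by gene, it was found for 3 of the 10 members, compared with 7.09% of 27305 genes. TNFAIP3 was the only member with 2 matches in 1 window. A match of letters is a description of the window, and none of these 3 genes passed both thresholds.

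Levels between genes were compared per length, as CPM per kilobase of merged GENCODE 44 exons. In control samples TAB2 stood highest, at 17.2 ± 0.157 CPM per kb (SD, n = 3), and TNFAIP3 lowest, at 0.530 ± 0.0842 CPM per kb. Between them came TRAF2 at 10.9, TAB1 at 8.89, MAP3K7 at 8.11, XIAP at 6.04, TAB3 at 3.05, RIPK1 at 1.68, TRAF6 at 1.66 and CYLD at 1.24 CPM per kb. Only RIPK1 and TRAF6 were neighbours whose control samples overlapped. The TAB2 level thus exceeded that of its paralog TAB3 in every sample, with control values of 17.1, 17.0 and 17.3 CPM per kb against 3.05, 3.11 and 2.99 CPM per kb.

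In knockdown samples MAP3K7 was at 3.29 ± 0.210 CPM per kb (SD, n = 3) and ranked 5 in place of 4, below XIAP at 6.30 CPM per kb. TRAF2 and TAB1, at 10.3 and 10.2 CPM per kb, then overlapped, as did TRAF6 and RIPK1, at 1.67 and 1.53 CPM per kb. The order depends on the length used. Per kilobase of the longest annotated transcript, control MAP3K7 was at 15.7 CPM per kb, above TAB1 at 12.3, and CYLD at 1.88 was above TRAF6 at 1.71, while TAB2, TRAF2 and TNFAIP3 kept the first, second and last places.

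**Figure D3:**
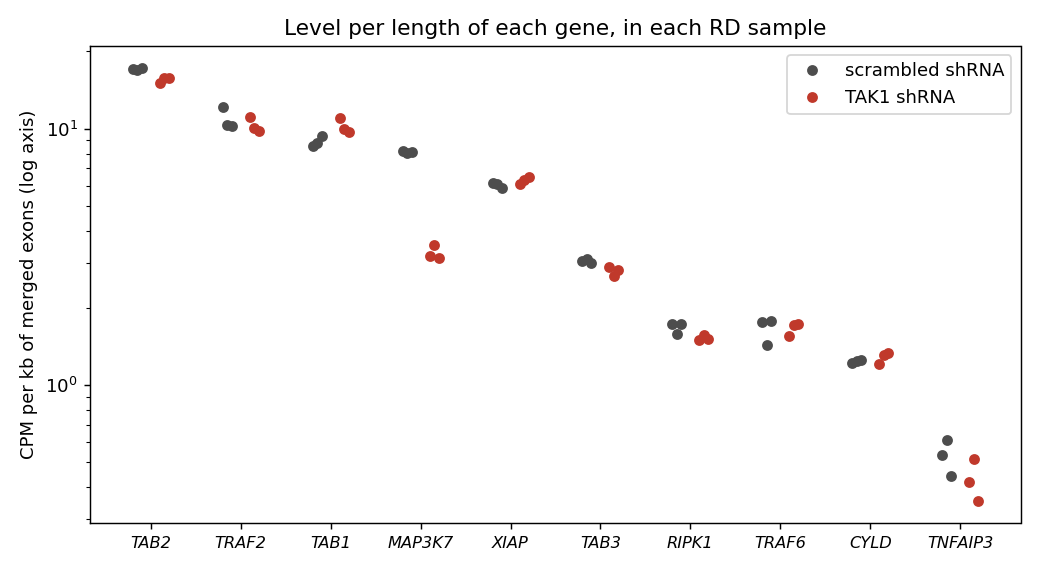
CPM per kilobase of merged exons (vertical log axis) of the 10 genes, ordered by their control mean, in the scrambled shRNA samples (grey) and the TAK1 shRNA samples (red). TAB2 is highest at 17.2 and TNFAIP3 lowest at 0.530 CPM per kb in control samples, and MAP3K7 is the gene whose red points lie far under the grey ones.

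Ratios of read counts within a sample do not depend on the normalization between samples, and 7 pairs were compared. MAP3K7 held 2.06, 1.97 and 1.88 reads per TAB1 read in control samples and 0.629, 0.766 and 0.697 in knockdown samples, a difference of -1.50 in the mean log2 ratio. This exceeded the change of MAP3K7 alone, since TAB1 was higher in knockdown samples. The ratio of MAP3K7 to TAB2 went from 0.745, 0.735 and 0.733 to 0.330, 0.351 and 0.309, a log2 difference of -1.16. That of MAP3K7 to TAB3 went from 2.03, 1.95 and 2.06 to 0.839, 1.01 and 0.846, a log2 difference of -1.17. For each of these 3 pairs the groups were far apart, and the two-sided exact permutation p was 0.1, the smallest that this test allows for 3 against 3 samples (0.175 adjusted over the 7 pairs), so it could not pass 0.05 for any pair.

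The balance between the paralogs TAB2 and TAB3 differed by less than the replicate spread. Their ratio was 2.73, 2.66 and 2.82 in control and 2.54, 2.87 and 2.74 in knockdown samples, a log2 difference of -0.010 (exact permutation p = 1). TRAF2 over TRAF6 likewise overlapped, with a log2 difference of -0.094 (exact permutation p = 0.7). XIAP over RIPK1 was 2.78, 3.03 and 2.64 in control and 3.16, 3.15 and 3.34 in knockdown samples, separate groups with a log2 difference of 0.19 (exact permutation p = 0.1). CYLD over TNFAIP3 ranged from 4.09 to 5.69 in control and from 5.09 to 7.57 in knockdown samples, with an exact permutation p of 0.2.

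**Figure D4:**
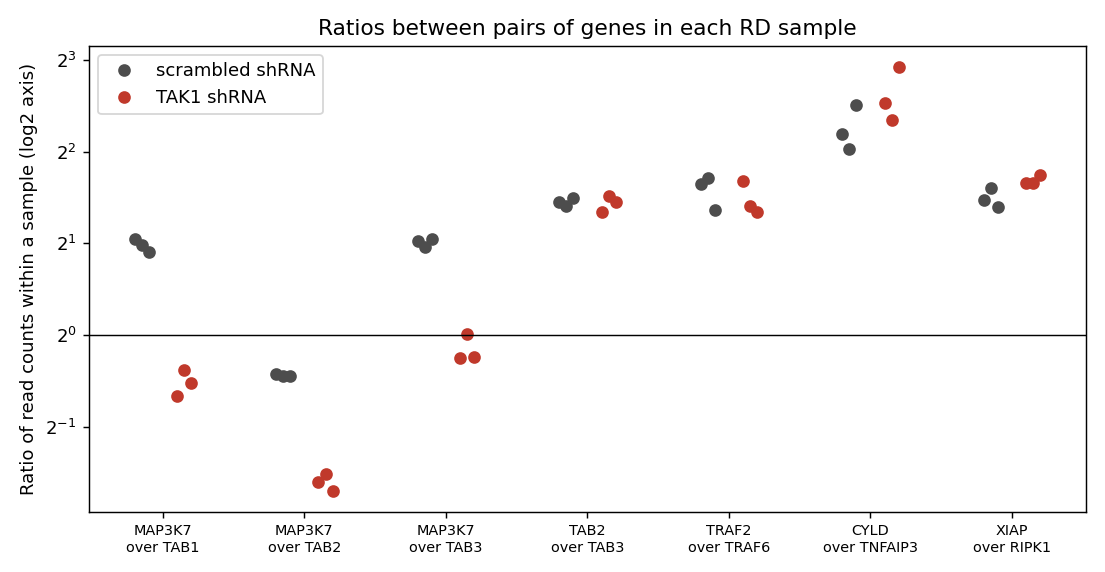
Ratio of read counts between pairs of genes within each sample (vertical log2 axis, line at 1) for scrambled shRNA (grey) and TAK1 shRNA (red) samples, n = 3 each. The 3 ratios with MAP3K7 on top lie lower in every knockdown sample, while TAB2 over TAB3 stays between 2.54 and 2.87 in all 6 samples.

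Genes that act with the members were then read from 7 lists of 103 distinct genes, chosen with earlier results of these data known and described by counts alone, of which 6 are given. Among enzymes that build lysine 63-linked and linear chains, 3 of 14 tested genes rose and 2 fell, beside 11.8% higher and 11.3% lower over all tested genes, and the median log2 fold change was 0.070, beside 0.018 over all. UBE2N, the E2 enzyme (UBC13) with which TRAF2 and TRAF6 build chains, fell from 132, 137 and 136 CPM to 99.8, 106 and 103 CPM, a log2 fold change of -0.39 (adjusted p = 5.66e-07, edgeR). TRAF4 fell by 0.65 and TRAF3 rose by 0.29 on the log2 scale, and the Pellino ligase gene PELI3 rose by 0.44. UBE2V1, the cofactor of UBE2N, rose by 0.66 from only 1.92 CPM, but it shares exons with the read-through gene PEDS1-UBE2V1, so its count is uncertain. BIRC2, a ligase of the same family as XIAP, was at 43.3 ± 2.48 CPM in control and 42.4 ± 4.83 CPM in knockdown samples and did not pass (adjusted p = 0.803, edgeR).

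Among deubiquitinases and cofactors of A20 and CYLD, 4 of 19 tested genes rose and 1 fell, near the 23.1% called in either direction over all tested genes, and the median log2 fold change was 0.021. SPATA2, which bridges CYLD to the linear ubiquitin assembly complex, rose by 0.41 on the log2 scale, from 28.8 to 38.3 CPM. The deubiquitinase genes USP2 and USP20 rose by 0.68 and 0.40, and ITCH, a ligase that works with A20, fell by 0.27. The count of lower genes in this list was 0 without knockdown replicate 1 or with library size alone, and 2 without control replicate 2. A further 5 genes of this list passed the adjusted p alone, among them the A20 cofactors TAX1BP1 (-0.17) and RNF11 (0.22).

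Of 7 phosphatase genes reported to act on TAK1 or its kinase targets, 4 fell and 1 rose, beside 11.3% lower and 11.8% higher over all tested genes, and the median log2 fold change was -0.39. PPP2CA, a catalytic subunit of protein phosphatase 2A, fell from 117, 117 and 116 CPM to 57.6, 62.5 and 69.4 CPM, a log2 fold change of -0.89 (adjusted p = 1.55e-11, edgeR). The second such subunit, PPP2CB, fell by 0.65 and PPP6C by 0.62, while PPM1L rose by 1.04 from a low level of 3.13 CPM. Exons of PPP2CA overlap other annotated genes on the same strand.

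Upstream of the complex, 9 of 24 tested receptor and adaptor genes fell and 1 rose, beside 11.3% lower and 11.8% higher over all tested genes, with a median log2 fold change of -0.12. The lower count was 6 with library size alone, and the higher count was 2 without control replicate 2. TNFRSF1A, the TNF receptor at which TRAF2 and RIPK1 assemble, fell from 148, 137 and 140 CPM to 91.3, 87.5 and 86.4 CPM, a log2 fold change of -0.68 (adjusted p = 1.2e-10, edgeR). TGFBR2 and IL1RAP fell by 1.02 and 0.81, and TRAF3IP2 rose by 0.38. Directly downstream, 2 of 8 tested genes of kinases and kinase complex subunits rose, 2 fell and 4 were not called. The shares over all tested genes were again 11.8% higher and 11.3% lower, and the list median log2 fold change was 0.057. MAP2K7 and MAP2K4 rose by 0.39 and 0.28, and CHUK and IKBKB fell by 0.32 and 0.31. The count of higher genes in this list went from 2 to 1 without knockdown replicate 3 and to 4 with library size alone.

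Of the 10 tested NF-κB target genes, listed as company for TNFAIP3, 4 fell and 1 rose, beside 11.3% lower and 11.8% higher over all tested genes, with a median log2 fold change of -0.22. CCL2 fell from 20.7, 22.8 and 23.5 CPM to 5.95, 4.84 and 4.91 CPM, a log2 fold change of -2.10 (adjusted p = 1.2e-13, edgeR). RELB and NFKB1 fell by 0.78 and 0.39, and TNFAIP2 rose by 0.36. The feedback inhibitor gene NFKBIA, at 13.0 CPM in control and 13.8 CPM in knockdown samples, did not pass, as was the case for TNFAIP3. Of the 26 list genes chosen for naming by the rule used here, exons of 12 overlap another annotated gene.

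**Figure D5:**
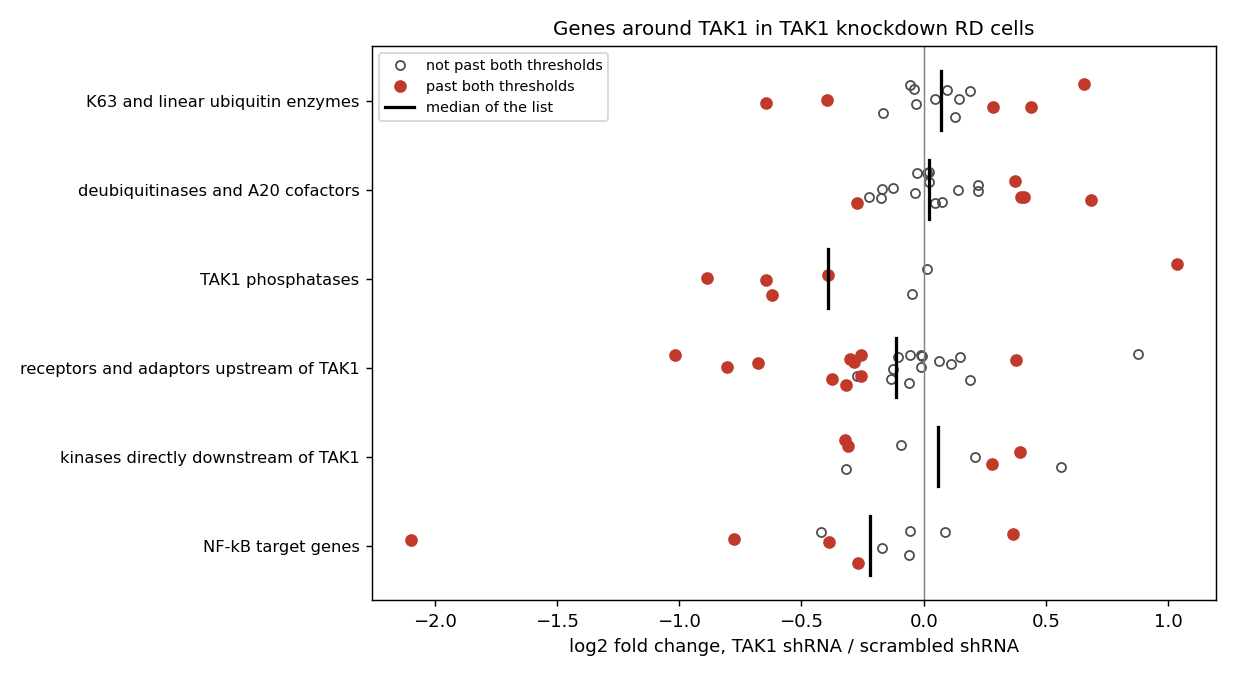
Log2 fold change of TAK1 shRNA over scrambled shRNA samples (horizontal axis) for the tested genes of the 6 lists described (rows), with filled points for genes past both thresholds and black bars for list medians; points are spread vertically for visibility. The phosphatase list has its median at -0.39, and the lowest point is CCL2 at -2.10.

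The 5 tested genes whose pattern over the 6 samples was most like that of MAP3K7 were LINC02458, PLAU, PFN2, VAPB and MME. Likeness was the root mean square difference of log2 CPM after centring on the control mean, which was 0.039 for LINC02458 and 0.077 for MME. Their log2 fold changes ran from -1.24 for VAPB to -1.34 for PLAU, around the -1.30 of MAP3K7, as this way of choosing them requires. The other 9 members changed far less and so were not among them.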

How the data were processed

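Poly(A)-enriched RNA of RD cells was sequenced as 75-base paired reads. Per the labels and the methods of the study, the authors called bases with CASAVA, discarded reads with adaptors, uncertain bases or poor quality, and mapped what was left to GRCh38/hg38 with STAR. They deposited raw counts of reads per gene symbol without normalization. The counter, the annotation release, the use of strand and the handling of multiply aligned reads are not given in the sources used here. Total counts were 28839898 to 34469323 per sample, and intervals cover the replicate spread.

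Samples were grouped by their titles. Counts of all genes were filtered with filterByExpr, normalized by TMM and fitted with edgeR 4.0.16 (quasi-likelihood test, no replicate term) in R 4.3.3, with Benjamini-Hochberg adjustment over 15935 genes. A gene was called at adjusted p under 0.05 with a log2 fold change of 0.25 or more in size. Standard errors were taken as the size of the fold change over the root of its F statistic. DESeq2 1.42.0, limma 3.58.1 (voom), 3 normalizations, 2 filters, 2 fold thresholds, a replicate block and leaving out each sample were alternatives. Ratios were compared by a two-sided exact permutation test. The edgeR, DESeq2 and voom fits, but not the ratio test, were checked on simulated counts. There the edgeR fit called 79 of 100 genes changed by 1 in log2 units and 65 of 100 changed by 0.5. Smaller changes, or as many changed genes as were called in the data, were not simulated.

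Named genes were all 10 members, up to 3 genes in each direction of each list by size among those past both thresholds whose mean over the groups reached 1 CPM, and the 5 most like MAP3K7 (with 0.5 CPM added). Genes named outside this rule (BIRC2, TAX1BP1, RNF11, NFKBIA, MAP3K7CL, BIRC3) were chosen after their values were seen. The result of 1 list is not reported here. The members and lists were chosen with earlier results of these data known. Gene positions and lengths are from GENCODE 44 and promoters from RefSeq, both on GRCh38. The shRNA site was located from the sequence of shRNA 1 in the study's methods and read from the reference.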

Additional observations from a re-analysis of the deposited data

How the results depend on the processing

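MAP3K7 stayed past both thresholds under all 14 alternatives, with a log2 fold change from -1.36 to -1.25, and leaving out each sample gave -1.36 to -1.28. Calls at the fold threshold of 0.25 were 0 members higher and 1 lower under each of these alternatives, and also at 0.5. With no fold threshold there were 1 higher (TAB1) and 2 lower (MAP3K7 and TAB2). Over all genes, a fold threshold of 0.5 left 735 higher and 680 lower genes, and no fold threshold gave 2569 higher and 2734 lower ones. The median log2 fold change of all genes was 0.018, and 0.066 with library size alone. With 1 sample left out, TRAF2 ran from -0.13 to 0.007, TRAF6 from -0.086 to 0.071 and the log2 ratio of TAB2 to TAB3 from -0.050 to 0.038. Values that changed sign were those of TRAF2 without control replicate 1 (0.007), of TRAF6 without knockdown replicate 2 (-0.007), knockdown replicate 3 (-0.025) or control replicate 2 (-0.086), and of the ratio of TAB2 to TAB3 without control replicate 3 (0.012) or knockdown replicate 1 (0.038). None of these passed the threshold in any fit, and the causes were not tested. Neighbours in the order of levels with overlapping samples numbered 1 in control and 2 in knockdown samples. By longest transcript they numbered 0 and 1, and with 1 sample left out 0 to 1 and 1 to 2. Of 224 alternative counts over the 7 lists, 206 stayed within 1.5 times the main count.

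Same-numbered samples of the 2 groups deviated together only weakly, with correlations of 0.134, 0.0707 and 0.0479. Those of differently numbered samples ran from -0.137 to 0.0767. With so few samples, these values cannot tell whether the numbers mark pairs. With the replicate block, 1942 genes were higher and 1848 lower, and the calls of members did not change. The fit with DESeq2 gave 1508 and 1760. Depth limits TNFAIP3 most, with 75 to 124 reads per sample.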

Other observations

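MAP3K7CL, a gene on another chromosome named for its likeness to the C-terminal end of TAK1, held 3374, 4103 and 4257 reads in control samples and 2372, 3470 and 3058 reads in knockdown samples. Its log2 fold change was -0.51 (adjusted p = 6.87e-07, edgeR), against -1.30 for MAP3K7. BIRC3, the relative of XIAP and BIRC2 that is a textbook NF-κB target, was too low to be tested, at 0.161 CPM in control and 0.0921 CPM in knockdown samples.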
